A study of Mus musculus with 6 samples.

Results

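Ankyrins, spectrins and the band 4.1 proteins build the skeleton under the plasma membrane of neurons. They were described here in the mouse hippocampus through 9 genes, namely Ank2, Ank3, Sptan1, Sptbn1, Sptbn4, Epb41, Epb41l1, Epb41l2 and Epb41l3. The members were found by gene symbol, as the rows of the deposited isoform matrix whose transcript name without its final number is one of these 9 genes, and they comprised 170 isoforms of 133944, in 9 of 53354 gene symbols. Hippocampi of 3 N-cre mice were compared with those of 3 N-cre;Fox1 mice, all C57BL/6 and 3 months old, with 1 library of total RNA a mouse. Both genotypes carried the Nes-cre transgene, which expresses Cre recombinase under the nestin promoter, active in the precursors of neurons and glia, and the N-cre;Fox1 mice carried in addition an Rbfox1 cDNA behind the CAG promoter at the Gt(ROSA)26Sor locus, which Cre switches on by removing a stop cassette. Rbfox1 is a neuronal RNA-binding protein that regulates splicing, and the comparison asks which transcripts differ when more of it is made. Whole hippocampi hold neurons, glia and vessels, so that fewer cells of a type and less RNA per cell cannot be told apart.

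In neurons, tetramers of alpha and beta spectrin cross-link short actin filaments into a periodic lattice, ankyrins tie ion channels and adhesion molecules to it, and 4.1 proteins strengthen the contact between spectrin and actin. Ankyrin-G, encoded by Ank3, assembles the axon initial segment and the nodes of Ranvier together with beta-IV spectrin, encoded by Sptbn4. These genes are heavily spliced: a very long exon in the middle of Ank2 and Ank3 gives the giant axonal ankyrins, and cassette exons of the 4.1 genes insert or remove parts of the domain that binds spectrin and actin.

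The exons that carry the description below are shown first. Each is given 5′ to 3′ in the direction of its gene, on mm10, with 6 bases of the neighbouring exons on either side in lower case. The first pair are the 63-base exon of Epb41, a coding cassette exon that lengthens the spectrin-actin-binding domain of protein 4.1R (chr4:131962924-131962986, minus strand), and its counterpart in Epb41l2, the gene of protein 4.1G (chr10:25493567-25493629, plus strand), with the exon in capitals. The third is the 147-base exon that follows it in Epb41l2 (chr10:25495445-25495591, plus strand), and the fourth a 57-base coding exon of Epb41 (chr4:131964131-131964187, minus strand).
Epb41, 63 bases: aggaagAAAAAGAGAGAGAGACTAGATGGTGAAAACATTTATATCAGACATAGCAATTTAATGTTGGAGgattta
Epb41l2, 63 bases: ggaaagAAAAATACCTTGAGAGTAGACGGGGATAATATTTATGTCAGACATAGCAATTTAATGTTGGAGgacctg
Epb41l2, 147 bases: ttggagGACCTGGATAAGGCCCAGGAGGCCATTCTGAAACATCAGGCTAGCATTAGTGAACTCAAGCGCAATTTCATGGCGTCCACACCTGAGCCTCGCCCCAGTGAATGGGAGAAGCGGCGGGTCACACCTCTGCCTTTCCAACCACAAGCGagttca
Epb41, 57 bases: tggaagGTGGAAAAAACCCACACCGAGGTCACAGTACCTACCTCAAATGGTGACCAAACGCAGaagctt

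Aligned without gaps, the 63-base exons of Epb41 and Epb41l2 were identical at 52 of 63 bases (82.5%). The best match among the internal exons of Epb41l3 lay in an exon of 66 bases and was identical at 43 of the 63 bases (68.3%), whereas in Epb41l1 the best window was identical at 28 bases (44.4%).

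The next pair of exons differ between isoforms in where they begin, and the capitals mark the bases that only the longer form holds. In the next-to-last exon of Ank3 the longer form has 86 bases and the shorter 83 (chr10:70015568-70015653, plus strand). In Epb41l3, the gene of protein 4.1B, the lengths are 221 and 167 bases (chr17:69262126-69262346, plus strand).
Ank3, 86 or 83 bases: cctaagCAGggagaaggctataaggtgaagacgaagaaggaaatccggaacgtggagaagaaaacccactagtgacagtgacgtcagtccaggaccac
Epb41l3, 221 or 167 bases: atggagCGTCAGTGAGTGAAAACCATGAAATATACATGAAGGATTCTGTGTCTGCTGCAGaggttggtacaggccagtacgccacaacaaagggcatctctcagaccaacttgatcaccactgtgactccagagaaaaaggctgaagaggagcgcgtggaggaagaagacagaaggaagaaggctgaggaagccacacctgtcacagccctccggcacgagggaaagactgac

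A 117-base coding exon near the 3′ end of Epb41l3 (chr17:69287612-69287728, plus strand) and a 60-base coding exon of Sptan1, the gene of alpha-II spectrin (chr2:30001100-30001159, plus strand), complete the set. The Sptan1 exon and the 63-base exon of Epb41 were added after their values were seen.
Epb41l3, 117 bases: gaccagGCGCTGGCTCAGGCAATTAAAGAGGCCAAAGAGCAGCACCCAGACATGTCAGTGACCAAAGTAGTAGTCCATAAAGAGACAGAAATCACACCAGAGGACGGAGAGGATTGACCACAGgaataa
Sptan1, 60 bases: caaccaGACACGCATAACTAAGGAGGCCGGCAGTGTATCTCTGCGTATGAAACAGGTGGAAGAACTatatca

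Expression was deposited as RSEM expected counts, with a total of 40463587 to 62141336 a mouse. Reads compatible with more than 1 isoform are divided among these isoforms in fractions, so that an expected count need not be whole. Members took 0.380% to 0.402% of the counts in each mouse. Rbfox1 itself had normalized counts of 14456 to 15286 in the N-cre and of 13571 to 15939 in the N-cre;Fox1 genotype, so the genotypes overlapped and this sum does not tell the labels apart. The study reported a modest rise of Rbfox1 mRNA, with data not shown, and more Rbfox1 protein in N-cre;Fox1 hippocampi. Summed counts of 5 choroid plexus markers stood apart in 2 libraries, at 117341 in N-cre mouse 3 and 263796 in N-cre;Fox1 mouse 2, against 1387 to 1842 in the other mice. Summed counts of 5 astrocyte markers ran from 77968 to 79156 in the first genotype and from 82516 to 93303 in the second, without overlap, with 3 of the 5 markers higher and 0 called. The summed neuronal, excitatory neuronal, oligodendrocyte, precursor, microglial, endothelial and red blood cell markers overlapped, and each marker of these lists was detected. The part of these cell types in the results below was not tested.

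Levels were compared between genes as counts divided by isoform length and scaled to the same total in each mouse, in TPM. Sptan1, encoding the alpha spectrin of neurons, had the highest level, at 440 ± 8.29 (SD, n = 6) TPM. Sptbn1, encoding the beta-II spectrin that partners it along axons, followed at 259 ± 6.63 TPM (SD, n = 6). Epb41l1, encoding the neuronal protein 4.1N, had 245 ± 6.45 TPM (SD, n = 6). Ank2, encoding ankyrin-B, which is spread along axons, had 239 ± 7.0 TPM (SD, n = 6). The level of Ank2 and its rank rest in part on RSEM's division of shared reads. Ank2-216, a short model of 2359 bases with 1 base of its own, took 29.6% of Ank2 counts, and counts are divided by length here. Lower levels were found for Ank3, at 151 ± 6.15 TPM (SD, n = 6), for Sptbn4, at 124 ± 5.16 TPM (SD, n = 6), and for Epb41l3, at 120 ± 4.51 TPM (SD, n = 6). Epb41l2 had 52.4 ± 1.70 TPM (SD, n = 6). Epb41, the founding member of the family and a main component of the red cell skeleton, had the lowest level of the 9, at 15.2 ± 1.72 TPM (SD, n = 6). The ranges over the 6 mice overlapped between Sptbn1 and Epb41l1, between Epb41l1 and Ank2, and between Sptbn4 and Epb41l3, and did not overlap between the other neighbours in this order.

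**Figure D1:**
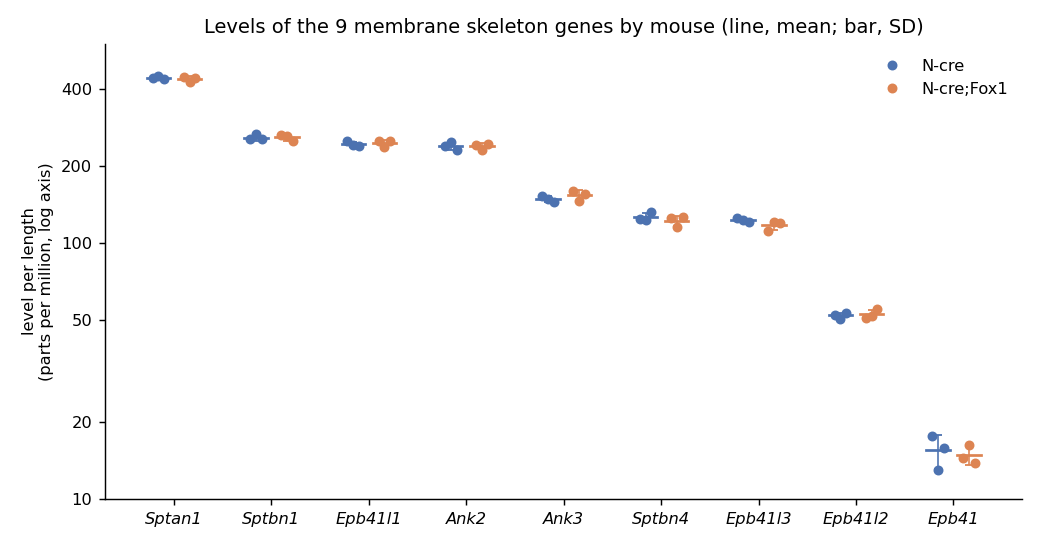
Levels of the 9 genes per length, scaled as TPM, on a log axis, with 1 point a mouse, the mean of a genotype as a line and its SD as a bar (N-cre blue, N-cre;Fox1 orange, n = 3 each). Sptan1 was highest at a mean of 440 and Epb41 lowest at 15.2. On the plotted scale the genotypes overlapped for each gene except Epb41l3. Its highest N-cre;Fox1 level, 120.5, lay just below its lowest N-cre level, 121.1, a gap that was not tested. As normalized counts, the genotypes overlapped for each gene, Epb41l3 included.

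The gene sums did not separate the genotypes. Normalized counts, which are expected counts scaled for library size and composition, overlapped between the genotypes in each of the 9 genes, so that 0 of 9 were without overlap against 12.2% of the 18924 genes tested. None of the 9 passed an adjusted p of 0.05 in edgeR's quasi-likelihood fit over all genes, in which 0.0264% of genes did, and the lowest unadjusted p among the 9 was 0.121. Their log2 fold changes (N-cre;Fox1 over N-cre) lay between -0.06 and 0.06, with a median of -0.01, beside a median of -2.35e-05 over all genes tested.

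Of the ankyrins, Ank2 had normalized counts of 23762, 25374 and 23098 in the 3 N-cre mice and of 25098, 24377 and 24066 in the 3 N-cre;Fox1 mice. Ank3 had 14624, 15294 and 14448 against 15762, 15264 and 15307, in the same order of genotypes. For Ank2 the highest count was in N-cre mouse 2, and for Ank3 this mouse lay within the range of the N-cre;Fox1 mice. In the edgeR fit Ank2 had a log2 fold change of 0.03 (SE 0.0453, 95% interval -0.07 to 0.13) and Ank3 of 0.06 (SE 0.0370, interval -0.02 to 0.14), with adjusted p of 0.972 and 0.854.

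Of the spectrins, Sptan1 had 59094, 66237 and 59998 normalized counts in N-cre mice and 65660, 62871 and 60832 in N-cre;Fox1 mice. Sptbn1 had 43016, 46145 and 43752 against 45739, 44964 and 42823. Sptbn4 had 15310, 14908 and 15933 against 15419, 14155 and 15375. In each case the range within a genotype was larger than the difference of the means. The log2 fold changes were 0.03 (95% interval -0.08 to 0.15) for Sptan1, 0.01 (-0.09 to 0.11) for Sptbn1 and -0.04 (-0.14 to 0.06) for Sptbn4, and their edgeR adjusted p were 0.972, 0.994 and 0.956.

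Of the 4.1 genes, Epb41 had 1913, 1483 and 1690 normalized counts in N-cre mice and 1644, 1769 and 1542 in N-cre;Fox1 mice, and the widest 95% interval of the 9. Epb41l1 had 31336, 30262 and 30383 against 31958, 28499 and 30965. Epb41l2 had 4123, 4079 and 4193 against 4012, 3977 and 4243. In these 3 genes each genotype held counts above and below some of the other. Epb41l3 had 9352, 9194 and 8915 against 8430, 8920 and 9039, so that the lowest count was in an N-cre;Fox1 mouse and the highest in an N-cre mouse. The log2 fold changes were -0.04 (95% interval -0.26 to 0.18) for Epb41, -0.01 (-0.12 to 0.10) for Epb41l1, -0.02 (-0.10 to 0.06) for Epb41l2 and -0.06 (-0.14 to 0.03) for Epb41l3, with edgeR adjusted p of 0.982, 0.992, 0.973 and 0.888.

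Across the 6 mice the 9 genes did not move as 1 group. Of their 36 pairs, 13 had a Pearson correlation of log2 CPM above 0, and the median was -0.19 (n = 6 mice, shared libraries, given as a description). The pairs among Ank2, Ank3, Sptan1 and Sptbn1, grouped after their values were seen, correlated at 0.60 to 0.94. Among 13728 other genes, those whose log2 CPM followed the mean standardized level of the 9 most closely were Rnf113a2, Trim2, Pja2, Map1b and Gars, with Pearson correlations of 0.996, 0.992, 0.990, 0.990 and 0.988 over the 6 mice. They were picked as the highest of 13728 over few mice, so the size of these correlations is no evidence of a link. The mean level was lowest in N-cre;Fox1 mouse 2 (-0.36) and N-cre mouse 3 (-0.24), the libraries with choroid plexus counts. The part of this in the correlations was not tested.

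The 9 genes differed in how their counts were spread over isoforms. Of the 170 isoforms, 30 had no count in any mouse and 85 had enough counts to be tested. Sptan1, Sptbn1 and Epb41l1 were each dominated by 1 isoform with over 80% of the counts. The effective number of isoforms, 1 over the sum of squared shares, was 1.19 for Sptan1, 1.32 for Epb41l1 and 1.37 for Sptbn1. It was 3.17 for Ank2, 3.87 for Ank3 and 5.61 for Epb41, the most divided of the 9. Such divisions rest in part on how RSEM assigned shared reads, since 9 of the 24 isoforms named by the rule hold no base of their own. Isoforms annotated as not coding took 44.2% of Epb41 counts as processed transcripts and 30.2% of Ank2 counts as retained introns, whereas Sptan1 and Sptbn1 were coding at 97.8% and 94.9%.

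Ank2 had 3 isoforms with at least 10% of its counts, of which Ank2-201 and Ank2-207 are annotated as coding. Ank2-201, with 25 exons and without the giant exon, took 36.3%, 32.2% and 35.8% of the counts in N-cre mice and 35.997%, 34.2% and 34.02% in N-cre;Fox1 mice. Ank2-207, with 46 exons including the giant one, took 29.7%, 34.6% and 31.04% against 33.4%, 35.5% and 31.6%. Ank2-216, annotated as a retained intron, took 31.98%, 29.7% and 30.7% against 27.7%, 26.04% and 31.5%. Genotypes overlapped in all 3. Ank2-216 is a single exon of 2359 bases at the 3′ end of the gene, and 2358 of these also belong to Ank2-201, so its count depends on the division of shared reads.

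The giant exon of Ank2 has 6198 bases (chr3:126941610-126947807, minus strand). Its inclusion, the share of counts from isoforms that hold it among those that span it, was 45.4%, 52.3% and 46.8% in N-cre mice and 48.4%, 51.8% and 48.5% in N-cre;Fox1 mice. The genotypes overlapped and differed by 1.43 percentage points (exact permutation test, two-sided, p = 0.6). Without N-cre mouse 2 the difference was 3.50 percentage points, and without N-cre mouse 1 it was 0.042. Long isoforms collect more reads, and with counts divided by isoform length the mean inclusion over the 6 mice was 30.8% in place of 48.9%.

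Ank3 also had 3 isoforms at or above 10%. Ank3-231, with 43 exons and no giant exon, took 41.5%, 40.3% and 41.2% of the counts in N-cre mice and 39.2%, 39.8% and 40.9% in N-cre;Fox1 mice. Ank3-244, a 9-exon model that holds the giant exon of 7674 bases (chr10:69986089-69993762, plus strand), took 15.5%, 18.4% and 16.4% against 17.9%, 19.01% and 16.7%. Both overlapped between the genotypes. Inclusion of this giant exon was 24.7%, 28.7% and 25.6% in N-cre mice and 28.5%, 29.2% and 26.2% in N-cre;Fox1 mice, with a difference of 1.64 percentage points (exact permutation test, two-sided, p = 0.3), which ran from 0.818 without N-cre mouse 1 to 2.83 without N-cre mouse 2. A shorter form of 2550 bases (chr10:69986083-69988632) had an inclusion of 2.68% to 3.52% in the first genotype and of 2.91% to 3.83% in the second. Among the isoforms that span them, the giant exons of both ankyrin genes were thus included at overlapping shares.

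The remaining main isoform, Ank3-225, is annotated as subject to nonsense-mediated decay and begins inside the giant exon, so it does not enter the inclusion of that exon. It took 23.3%, 22.9% and 22.7% of the Ank3 counts in N-cre mice and 23.9%, 23.6% and 23.4% in N-cre;Fox1 mice. These shares did not overlap, and the means differed by 0.63 percentage points.

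**Figure D2:**
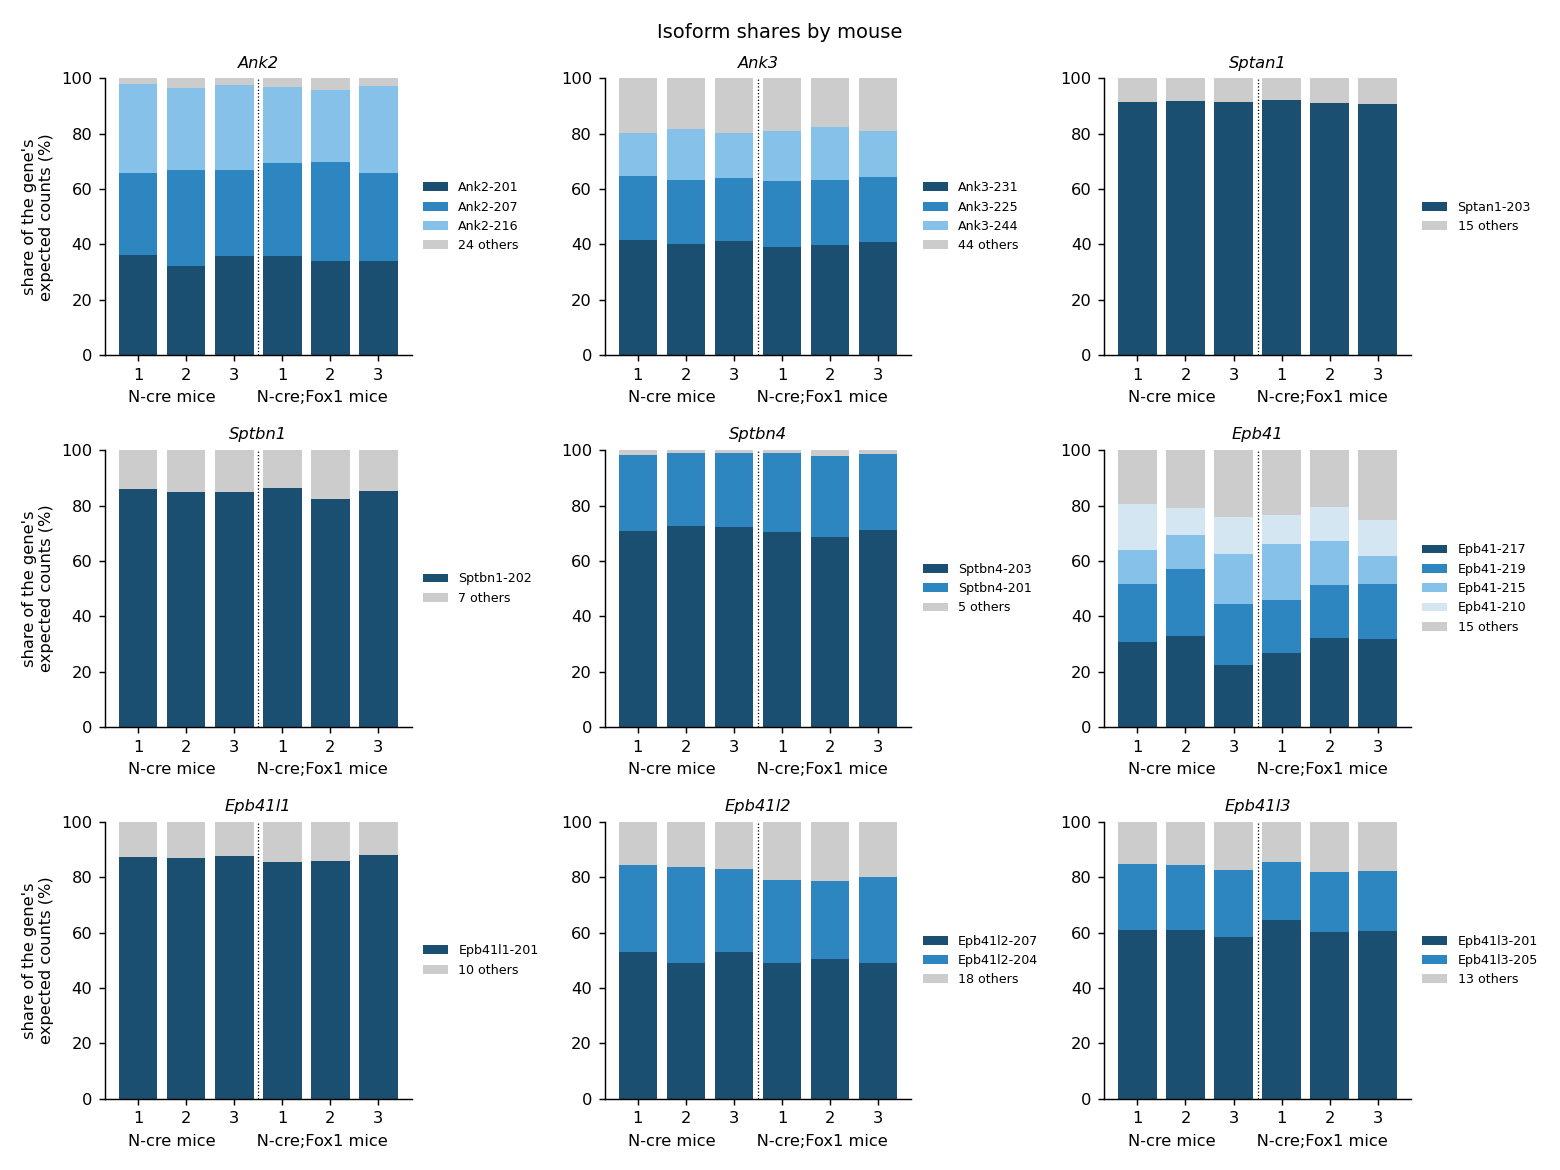
Share of each gene's expected counts, in percent, by isoform in each of the 6 mice, for isoforms with a mean share of at least 10%, the rest pooled in grey. Sptan1-203, Sptbn1-202 and Epb41l1-201 took over 80% in every mouse, while Epb41 was divided among 4 main isoforms.

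The counts of Sptan1 fell almost wholly on Sptan1-203, a 57-exon isoform with no base of its own. It took 91.3% to 91.8% of the counts in the N-cre and 90.8% to 92.1% in the N-cre;Fox1 genotype. This share rests on how RSEM assigned shared reads. Inclusion of the 60-base exon of Sptan1 was 93.97%, 93.5% and 93.6% in N-cre mice and 93.9%, 92.7% and 93.02% in N-cre;Fox1 mice, which overlapped. Sptan1-201, with 55 exons and no base of its own, had the lowest p of all members in the test of isoform use, which asks whether an isoform changes relative to its gene, and is named after its values were seen. Its normalized counts were 599, 662 and 761 against 684, 2383 and 963. The high value was that of N-cre;Fox1 mouse 2, a library with choroid plexus counts, and the adjusted p of the edgeR use test was 0.153. Without N-cre;Fox1 mouse 1, Sptan1-201 was called.

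The beta spectrins differed in their isoform pattern. Sptbn1-202 took 84.99% to 85.8% of Sptbn1 counts in the N-cre and 82.5% to 86.3% in the N-cre;Fox1 genotype. Sptbn1-206, a 2-exon retained-intron model with 1036 bases of its own, took 3.58%, 3.38% and 3.68% against 3.87%, 3.74% and 3.82%, without overlap. For Sptbn4, the short Sptbn4-203 with 19 exons took 70.7%, 72.5% and 72.4% in N-cre mice and 70.5%, 68.7% and 71.2% in N-cre;Fox1 mice. The full Sptbn4-201 with 36 exons took 27.8%, 26.4% and 26.5% against 28.5%, 29.3% and 27.5%. Both overlapped between the genotypes, so the isoform of beta-IV spectrin with the larger number of exons was the minor one in both.

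Among 56 member isoforms whose normalized counts averaged 100 or more, shares did not overlap between the genotypes in 8, of which 5 had a higher and 3 a lower share in the N-cre;Fox1 genotype. Over all genes with 2 or more isoforms this held for 11.4% of 23790 such isoforms, so that 8 of 56 stands near the background. With 3 mice against 3 the exact permutation test cannot give a p below 0.1, and each of the 8 has this value.

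In isoform counts, edgeR's quasi-likelihood fit called 0 of the 85 tested members and 0 of the 50556 isoforms tested (0% called), although 2419 of all isoforms, or 4.78%, and 4 of the 85 members had an unadjusted p under 0.05. DESeq2's Wald test called 215 and limma-voom 0 of all isoforms, with 0 members among them in either. Of the 85 members, 53 had a log2 fold change above 0 and 32 below, with a median of 0.07 beside 0.00 over all isoforms tested. The use test called 92 of 42441 isoforms (0.217%) and 0 of 85 members, of which 3 had an unadjusted p under 0.05.

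Epb41l3-205, an isoform of protein 4.1B, had the lowest unadjusted p of the members in the isoform fit. It holds 528 bases that no other isoform of the matrix has. Its normalized counts were 2215, 2158 and 2167 in N-cre mice and 1770, 1924 and 1977 in N-cre;Fox1 mice, so every N-cre;Fox1 mouse lay below every N-cre mouse. The edgeR fit gave a log2 fold change of -0.21 (SE 0.0533, 95% interval -0.33 to -0.08), an unadjusted p of 0.00758 and an adjusted p of 0.905. Its share of Epb41l3 counts was 23.6%, 23.5% and 24.3% against 21.004%, 21.6% and 21.9%, a difference of -2.32 percentage points without overlap. The main isoform, Epb41l3-201, took 61.2%, 60.9% and 58.4% against 64.7%, 60.4% and 60.5%, which overlapped.

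Exons of Epb41l3 followed these isoforms. The 221-base form printed above, as opposed to the 167-base form that only Epb41l3-205 has among the isoforms of the matrix, made up 74.4%, 74.3% and 73.5% in N-cre mice and 77.5%, 76.6% and 76.2% in N-cre;Fox1 mice. Inclusion of the 117-base exon, which Epb41l3-205 lacks, was 70.7%, 69.9% and 69.6% against 74.8%, 72.4% and 71.9%. Neither overlapped between the genotypes, with differences of 2.70 and 2.96 percentage points. Epb41l3-205 enters both, so they are 1 observation rather than 2.

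In Epb41l2 the exons of the spectrin-actin-binding domain were a minor form. The 63-base exon printed above was included in 9.76%, 11.5% and 11.8% of spanning counts in N-cre mice and in 15.9%, 15.3% and 13.4% in N-cre;Fox1 mice. The 147-base exon that follows it had 9.75%, 11.4% and 11.8% against 15.8%, 15.2% and 13.3%. Every N-cre;Fox1 mouse lay above every N-cre mouse. The means of the 63-base exon differed by 3.84 percentage points (10.997 ± 1.08 against 14.8 ± 1.31, SD, n = 3 each) and those of the 147-base exon by 3.83. The same 3 isoforms hold both exons, and Epb41l2-201 supplied 64.2% of their counts. The summed astrocyte markers, given above, did not overlap either, and their part in this result was not tested.

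Epb41l2-201 had 228, 287 and 321 normalized counts in N-cre mice and 358, 362 and 364 in N-cre;Fox1 mice, without overlap. With edgeR, the log2 fold change was 0.38 (SE 0.144, 95% interval 0.03 to 0.73), the unadjusted p 0.0375 and the adjusted p 0.990, and leaving out N-cre mouse 1 gave a log2 fold change of 0.25. Its share of Epb41l2 was 5.52%, 7.02% and 7.66% against 8.92%, 9.10% and 8.61%, again without overlap. Epb41l2-202, which holds the same exons and was too low to be tested, was at 0 in the 3 N-cre mice and at 62.2, 33.4 and 0 in the N-cre;Fox1 mice, and the use test called it when some single libraries were left out. The main isoforms, which lack both exons, were Epb41l2-207 with 53.1%, 49.2% and 52.96% against 49.1%, 50.5% and 48.95%, and Epb41l2-204 with 31.2%, 34.4% and 30.2% against 29.95%, 28.2% and 31.1%. Both main isoforms had a lower mean share in the N-cre;Fox1 genotype, with overlap.

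In Epb41 the counterpart of the 63-base exon had the same direction and a wider spread. It was added after its values were seen, so its direction does not add to the result of Epb41l2. Its inclusion was 18.4%, 7.03% and 25.1% in N-cre mice and 31.4%, 20.7% and 25.4% in N-cre;Fox1 mice, which overlapped (difference 9.0 percentage points, exact permutation test, two-sided, p = 0.2). Without N-cre mouse 2 the difference was 4.09 percentage points. The 57-base exon of Epb41 did not overlap, with 9.45%, 2.46% and 13.2% against 21.5%, 17.1% and 17.4%, a difference of 10.3 percentage points, the largest of the exons described here. The isoform that supplied 78.1% of its inclusion, Epb41-208, had 72.2, 0 and 133 normalized counts against 250, 135 and 166, with a 95% interval of its log2 fold change from -1.38 to 4.26. These values rest on 1180 spanning expected counts a mouse on average, against 3850 for the 63-base exon of Epb41l2. Epb41-208 also holds the 63-base exon of Epb41, so the 2 Epb41 exons are not separate observations.

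Epb41-219, a 10-exon isoform with a last exon of 7097 bases, took 21.2%, 24.2% and 22.2% of Epb41 counts in N-cre mice and 19.2%, 19.01% and 19.9% in N-cre;Fox1 mice. Its normalized counts were 407, 360 and 375 against 315, 336 and 305, with a log2 fold change of -0.25 (SE 0.101, 95% interval -0.50 to -0.01) and an edgeR adjusted p of 0.990. An exon of 185 bases, 3 bases shorter than in the other isoforms that hold it, is used by Epb41-219 alone among the isoforms of the matrix and made up 43.2%, 42.2% and 39.4% against 31.7%, 34.4% and 38.03%. Each of these values was lower in every N-cre;Fox1 mouse than in any N-cre mouse. Epb41-217, a 5-exon processed transcript, took the largest mean share of the gene, at 22.3% to 32.999% in the N-cre and 26.8% to 32.2% in the N-cre;Fox1 genotype. Epb41-215 had 10.04% to 20.2% and Epb41-210 had 9.60% to 16.8% over the 6 mice, and both overlapped between the genotypes.

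**Figure D3:**
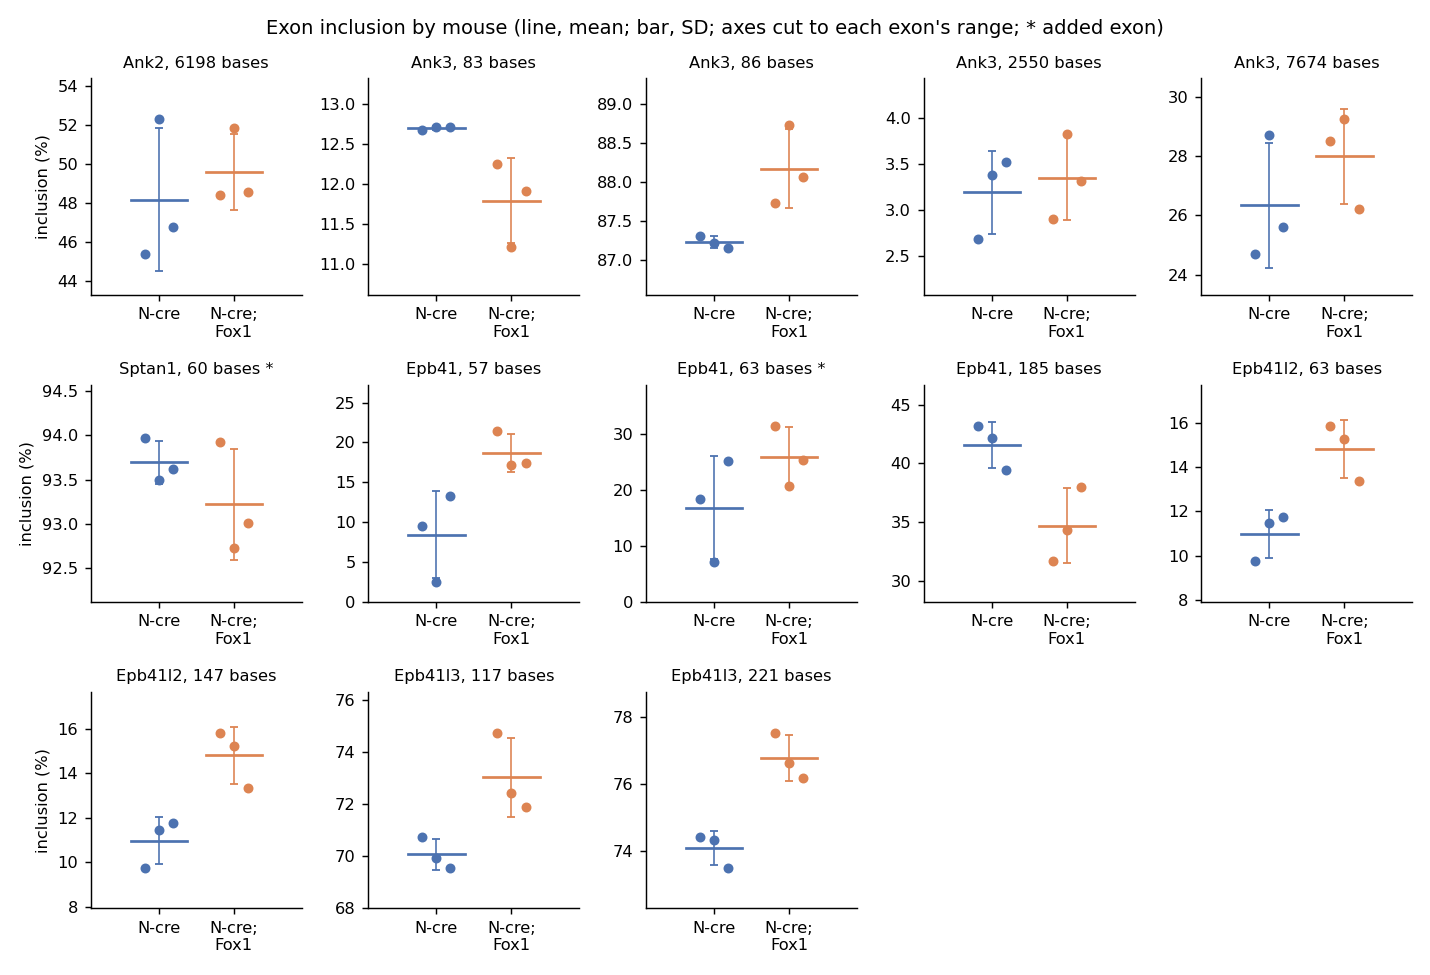
Inclusion in percent by mouse for the giant exons of Ank2 and Ank3, for the exons whose inclusion did not overlap, and for the exons of Sptan1 and Epb41 added after their values were seen (starred), with the mean as a line and the SD as a bar (n = 3 each, every axis cut to its exon's range). The 63-base exon of Epb41l2 lay at 9.76% to 11.8% in N-cre and at 13.4% to 15.9% in N-cre;Fox1 mice, while the giant exons overlapped.

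Ank3 showed small differences of this kind. The 86-base form of the exon printed above, which has 3 more bases than the 83-base form, made up 87.3%, 87.2% and 87.2% in N-cre mice and 87.7%, 88.7% and 88.1% in N-cre;Fox1 mice. Among the isoforms that span it, Ank3-236 alone holds the 83-base form, and it took 9.99%, 9.68% and 9.91% of Ank3 counts against 9.36%, 8.47% and 9.22%. Neither overlapped, with differences of 0.947 percentage points for the 86-base form and -0.847 for the share of Ank3-236. The normalized counts of Ank3-236 themselves overlapped, at 1430 to 1482 in the first genotype and 1293 to 1474 in the second.

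Of the 35 internal exons of the 9 genes with a length under 300 or over 1000 bases and a mean inclusion between 5% and 95%, inclusion did not overlap in 16, against 11.7% of 18023 such exons over all genes. These 16 were 4 of 7 exons of Ank3, 4 of 7 of Epb41, 5 of 6 of Epb41l2 and 3 of 5 of Epb41l3. Ank2 had 0 of 5, Epb41l1 0 of 3, and Sptan1 and Sptbn1 0 of 1 each. Exons of a gene share isoforms, such as Epb41l2-201 or Epb41-219, so that the 16 are not separate observations and cannot be read against that share as if they were. Counted by isoform, the members stood near the background.

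Of the 8 isoforms whose shares did not overlap, 2 were low. Ank2-210, a single-exon retained intron of 2781 bases, of which 2689 belong to no other isoform (chr3:126925587-126928367, minus strand), had normalized counts of 87.7, 79.5 and 79.7 in N-cre mice and 117, 158 and 120 in N-cre;Fox1 mice. The edgeR log2 fold change was 0.68 (SE 0.182, 95% interval 0.24 to 1.12), with an unadjusted p of 0.008715 and an adjusted p of 0.944, and Ank2-210 made up 0.313% to 0.650% of Ank2 counts. Epb41l1-211, a 5-exon fragment with no base of its own, had 129, 144 and 139 against 152, 170 and 176. Epb41l1-201, the main isoform of that gene, took 87.1% to 87.6% in the N-cre and 85.5% to 87.996% in the N-cre;Fox1 genotype, which overlapped.

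**Figure D4:**
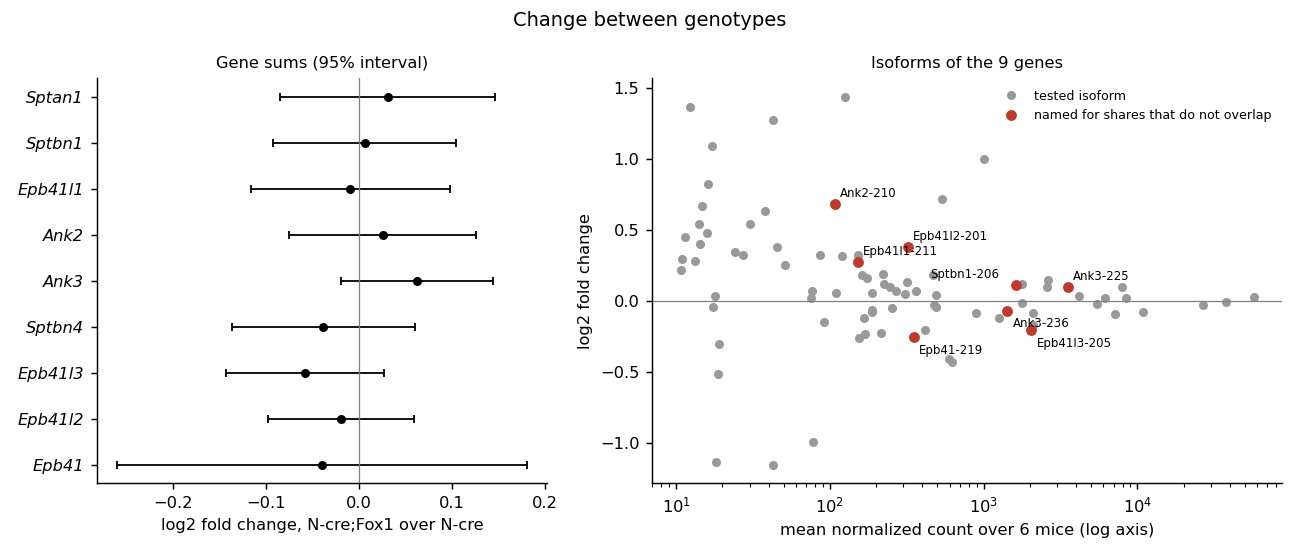
Log2 fold changes of N-cre;Fox1 over N-cre, left for the 9 gene sums with 95% intervals from edgeR, right for the 85 tested isoforms against the mean normalized count on a log axis, with the 8 isoforms whose shares did not overlap in red. All 9 intervals cover 0, and 0 isoforms passed the adjusted threshold.

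Without N-cre mouse 3 and N-cre;Fox1 mouse 2, the libraries with choroid plexus counts, the direction of the 8 shares is fixed by how they were chosen, and only their size can be read. The difference in share was then 2.49 percentage points for Epb41l2-201, -2.09 for Epb41l3-205 and -3.20 for Epb41-219, and that of the 63-base exon of Epb41l2 was 4.0. The 57-base exon of Epb41 differed by 13.5 percentage points. This comparison keeps N-cre mouse 2, which had the lowest inclusion of that exon and 0 counts of Epb41-208, so the larger difference leans on that mouse.

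None of the partners of these proteins was called. Of 9 other genes of the families, 7 were tested with 0 called, 0 without overlap and log2 fold changes from -0.16 to 0.03. Of 14 partners of the membrane skeleton, among them adducins, tropomodulins, tropomyosins and actins, 0 were called, 5 were higher and 9 lower, with a median log2 fold change of -0.01. Of these, 2 of 14 did not overlap, which is near the 12.2% of all genes tested. Tmod3, encoding a tropomodulin that caps actin filaments, had 1308, 1246 and 1295 normalized counts in N-cre mice and 1394, 1491 and 1338 in N-cre;Fox1 mice (log2 fold change 0.13, edgeR adjusted p 0.799). Tpm3, encoding a tropomyosin, had 6900, 6866 and 7025 against 7393, 7048 and 7113 (log2 fold change 0.05, edgeR adjusted p 0.885).

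Of 29 genes of the axon initial segment, the nodes and membrane proteins that bind ankyrins or 4.1 proteins, 0 were called, 9 were higher and 20 lower, with a median log2 fold change of -0.02. The channels Scn8a and Scn2a, chosen after their values were seen as examples of channels clustered through ankyrin-G, had log2 fold changes of 0.01 and -0.02. The genotypes did not overlap in 5 of the 29, beside 12.2% of all genes tested. Among these, Cadm1, Slc4a3 and Mical3 were lower and Cntn1 was higher. Cadm1, encoding an adhesion molecule that binds protein 4.1B, had 10203, 10526 and 10106 normalized counts in N-cre mice and 9530, 9497 and 9675 in N-cre;Fox1 mice, with a log2 fold change of -0.10 (SE 0.0328, edgeR adjusted p 0.712). Cntn1, encoding the paranodal adhesion molecule contactin, had 17639, 17992 and 17357 against 19264, 19003 and 18127 (log2 fold change 0.09, edgeR adjusted p 0.799). Each of the 3 N-cre;Fox1 mice lay below every N-cre mouse for Cadm1 and above for Cntn1. Slc4a3, encoding an anion exchanger, had 8995, 9156 and 9057 against 8490, 8693 and 8715, and Mical3, encoding an actin-oxidizing enzyme, 6044, 5792 and 5838 against 5624, 5610 and 5720 (log2 fold changes -0.07 and -0.06, edgeR adjusted p 0.799 and 0.849).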

How the data were processed

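RNA-seq of hippocampi from 3 N-cre and 3 N-cre;Fox1 mice was analysed. According to the study's methods and the submitters' notes, the authors used Cutadapt 1.18 for trimming, STAR 2.5.2b for mapping (mm10) and RSEM 1.3.0 with GENCODE M16 for isoform counts; they deposited expected counts, neither normalized nor filtered. Libraries were made from total RNA with a stranded kit.

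Expected counts were summed by gene symbol for the gene fit. Gene sums and isoform counts were then rounded and filtered with filterByExpr (minimum count 10, minimum total 15). They were tested with edgeR 4.0.16 (R 4.3.3, quasi-likelihood, TMM, genotype as the only term, Benjamini-Hochberg adjustment, threshold 0.05). Isoform use was tested with edgeR's diffSpliceDGE, most of whose calls were false in simulated data, and limma's diffSplice also made many false calls there. Shares came from unrounded counts and were compared by exact permutation in SciPy 1.17.1. Alternatives were other filters and scalings, DESeq2 1.42.0, limma 3.58.1, a replicate block and leaving out mice. Positions and sequences are those of GENCODE M21 (mm10), in which 167 of the 170 isoforms were matched in the same version and 1 in another. Exon inclusion rests on annotated isoforms, not on counted junctions. Introns and proteins were not analysed here.

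Isoforms were named if they held at least 10% of their gene, were called, or, at a mean normalized count of 100, were among the 8 with the largest differences without overlap. Exons were named as the 2 a gene with the largest differences without overlap, and the ankyrin exons over 2000 bases. Partner genes were named where the genotypes did not overlap, and 1 of them is not reported here. The edgeR p-values set the difference between genotypes against the spread among these 6 mice, moderated over all features tested. The exact permutation p-values rank that difference among the ways of splitting the mice into groups of 3. Members, lists and rules were chosen with earlier results of these data known. Depth was 40463587 to 62141336 expected counts, and the spread of 3 mice a genotype limits the precision.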

Additional observations from a re-analysis of the deposited data

How the results depend on the processing

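Gene calls were 5 in the fit as reported, 45 without a filter beyond 1 count, 50 with DESeq2's Wald test, and 2 to 28 with a mouse left out (28 without N-cre;Fox1 1, 2 without N-cre 2, 3 without N-cre 3 or N-cre;Fox1 3). Isoform calls were 0, and 10 without that filter, 6 with at least 10 counts in every mouse and 215 with DESeq2's Wald test. Calls of isoform use were 92, and 199 without the filter, 45 with at least 10 counts in every mouse, 145 with limma's diffSplice (like edgeR's use test, prone to false calls in simulated data), 170 to 199 with a mouse left out, and 271 without N-cre mouse 3 and N-cre;Fox1 mouse 2, an alternative added after the data were seen. Members were called in the use test only: Epb41l2-202, at 0 in 4 mice, without the filter and without N-cre 1, 2 or 3 or N-cre;Fox1 3, Epb41l2-212 without N-cre 2, and Sptan1-201 without N-cre;Fox1 1. Member isoforms without overlap in share numbered 8 as reported, 10 to 19 with a mouse left out (19 without N-cre 2, 18 without N-cre;Fox1 3, 13 without N-cre;Fox1 1 or 2), and 16 without N-cre mouse 3 and N-cre;Fox1 mouse 2. With fewer mice a genotype, any isoform is more often without overlap. The share over all isoforms is not given for these settings, so the higher counts cannot be read as a result about the members. With the replicate number as a block, the counts were 5 genes, 0 isoforms and 64 for use, with 0 members. Same-numbered mice correlated at 0.71, -0.24 and -0.39 in their deviations from the genotype means. Within a genotype these deviations depend on each other, so they cannot decide whether the numbers pair the samples. Across numbers, N-cre 3 and N-cre;Fox1 2, the libraries with choroid plexus counts, correlated at 0.75, and N-cre 2 and N-cre;Fox1 3 at 0.55. The remaining pairs lay between -0.61 and -0.02. No fit held a term for such pairs across numbers, and their cause was not tested.

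The sign of small fold changes, none of them called, depended on single mice. With a mouse left out the log2 fold change ran from -0.0096 to 0.040 for Sptbn1, -0.058 to 0.0016 for Sptbn4, -0.12 to 0.063 for Epb41, -0.039 to 0.038 for Epb41l1, -0.042 to 0.024 for Sptbn1-202, -0.060 to 0.0070 for Epb41l3-201, -0.054 to 0.023 for Epb41l1-201, -0.48 to 0.091 for Epb41-210, -0.14 to 0.36 for Epb41-215, -0.11 to 0.20 for Epb41-217, -0.023 to 0.050 for Ank2-201 and -0.012 to 0.082 for Sptan1-203. Without N-cre mouse 3 and N-cre;Fox1 mouse 2 it was -0.0077 for Sptbn1, 0.029 for Sptbn4, 0.033 for Epb41l1, 0.011 for Epb41l2, 0.0081 for Sptbn4-203, 0.017 for Epb41l1-201 and -0.21 for Epb41-217. The cause was not tested. Among the exons named, those of Epb41 had the lowest depth, down to 719 spanning counts in 1 mouse for the 185-base form. With counts divided by length, 9 isoform shares and 12 exons were without overlap, and 12 exons with coding isoforms alone. The shares over all isoforms and exons are not given for these settings, so these counts have no background beside them and are a description only.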
